A study of Mus musculus with 6 samples.

Results

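Messenger RNA levels of 37 lysosome, proton pump and autophagy genes were examined in mouse haematopoietic stem cells (HSCs) with high or low surface CD38, an enzyme that consumes NAD. The genes were chosen by name: every row of the count tables whose Ensembl identifier maps to one of the 37 listed symbols, with cathepsins left out. All 37 were found among the 49585 genes of the tables, and all 37 were among the 14785 genes with enough reads to test. The cells came from bone marrow of untreated C57BL/6 mice aged 8 to 16 weeks. They were sorted as lineage-negative, Kit+, Sca-1+, CD48-, CD150+, CD34-, CD201+ cells and split by CD38 into a CD38-positive (CD38hi) and a CD38-negative (CD38lo) population, with 3 libraries each. Each library held the cells of 10 mice, and the design text matches the libraries into 3 pairs but does not say if paired libraries share mice. The series concerns CD38 and HSC dormancy, and the question here is whether transcripts of the lysosome and of autophagy differ between the populations.

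Lysosomes are acidic compartments that break down proteins, lipids and sugars. Their acidity is made by the V-ATPase, a rotary pump in which a cytosolic sector (V1) burns ATP and a membrane sector (V0) moves protons. Autophagy wraps cytoplasm in a double membrane and delivers it to the lysosome. The transcription factors TFEB and TFE3 switch on many of these genes when the nutrient-sensing kinase mTORC1 is low, by binding CACGTG-containing sites near their starts. Slow lysosomal turnover and autophagy are both known as features of quiescent HSCs.

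The start regions of 5 members are shown because they hold, or lack, CACGTG, letters that TFEB and TFE3 are known to bind. Only these exact letters were searched, and other forms of a binding site were not looked for. Each run is the 120 bases before the RefSeq transcript start (GRCm38.p6), 5′ to 3′ on the gene's strand. They lie at chr8:13159041-13159160 for Lamp1, chr8:3500399-3500518 for Mcoln1, chr9:114400958-114401077 for Glb1, chr17:34931133-34931252 for Neu1 and chr9:59539420-59539539 for Hexa, all on the plus strand. The genes Neu1 (chromosome 17, 34931253 to 34935953) and Hexa (chromosome 9, 59539540 to 59565109) are the members with the smallest p-values further on. Capitals mark CACGTG, extended to GTCACGTG where that longer form is present on either strand.
Lamp1: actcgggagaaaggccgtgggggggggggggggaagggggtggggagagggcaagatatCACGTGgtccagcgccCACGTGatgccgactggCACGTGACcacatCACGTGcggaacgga
Mcoln1: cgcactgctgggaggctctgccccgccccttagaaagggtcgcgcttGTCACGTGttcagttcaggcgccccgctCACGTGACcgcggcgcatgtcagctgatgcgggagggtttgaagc
Glb1: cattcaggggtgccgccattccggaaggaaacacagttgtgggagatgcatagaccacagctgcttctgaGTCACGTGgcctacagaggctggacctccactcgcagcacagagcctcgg
Neu1: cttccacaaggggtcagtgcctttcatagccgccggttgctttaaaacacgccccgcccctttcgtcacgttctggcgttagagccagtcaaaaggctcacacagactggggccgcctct
Hexa: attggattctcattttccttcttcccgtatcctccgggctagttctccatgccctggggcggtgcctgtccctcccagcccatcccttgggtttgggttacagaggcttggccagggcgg
Lamp1 holds CACGTG 4 times in this stretch, Mcoln1 holds it 2 times and Glb1 1 time, while Neu1 and Hexa hold it 0 times.

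Total counts ran from 16771180 to 18558610 per library, and a member had between 56 and 12109 reads in a library. Transcripts of Cd38 itself were at 36.99, 46.3 and 58.3 CPM (read counts scaled to a common library size, CPM, with TMM factors) in the CD38-positive libraries of pairs 1, 2 and 3, and at 24.2, 35.6 and 23.9 CPM in their CD38-negative partners. All 10 HSC markers examined were detected, at a summed 767 to 2234 CPM. All 10 neutrophil markers were detected too, in every library, at a summed 70276 to 159792 CPM. The 10 monocyte and macrophage markers summed to 6262 to 16434 CPM, with at least 23 reads for each marker in every library, so none was at 0. Lyz2 alone gave 5327 to 14167 CPM of these sums.

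No member passed the test between the populations. With the pair as a block, edgeR's quasi-likelihood test gave 0 of the 37 members a Benjamini-Hochberg adjusted p under 0.05 (smallest 0.925), where 0.0135% of all genes tested passed. DESeq2 with the same block also called 0 members. At an unadjusted p under 0.05 there were 2 members, Neu1 and Hexa, both higher in CD38-positive cells; that is 5.41% of the members beside 5.08% of all genes tested, so the share is close to the background. By direction, 2 members were higher (2.47% of all genes tested were) and 0 lower (2.61%). The median log2 fold change (CD38-positive relative to CD38-negative) was 0.13 over the members and 0.00 over all genes tested. Of the members 25 were higher and 12 lower, and all lay between -0.48 and 0.56. Over all genes tested, 7404 of 14785 were higher. The 105 other lysosome and autophagy genes tested, described further on, had 54 higher and 51 lower, with a median of 0.004.

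The size of a difference that these libraries leave possible is given by its 95% interval. For 34 of the 37 members the whole interval lay within a 2-fold change in either direction, that is within 1 on the log2 scale. The exceptions were Tfeb, whose interval reached up to 1.07, Neu1, up to 1.03, and Atp6v0d1, down to -1.05. Over all genes tested, 9850 of 14785 had an interval within a 2-fold change. The intervals are not adjusted for the number of genes. Members were also steadier between libraries of a population than genes at large: their median coefficient of variation was 17.0%, against 24.1% over all genes tested. Their median level was 31.6 RPKM (reads per kilobase of exon, scaled to library size), against 3.91 RPKM over all genes tested, and the part of level in this was not tested. In bulk RNA, fewer cells of a type and less RNA per cell cannot be told apart.

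**Figure D1:**
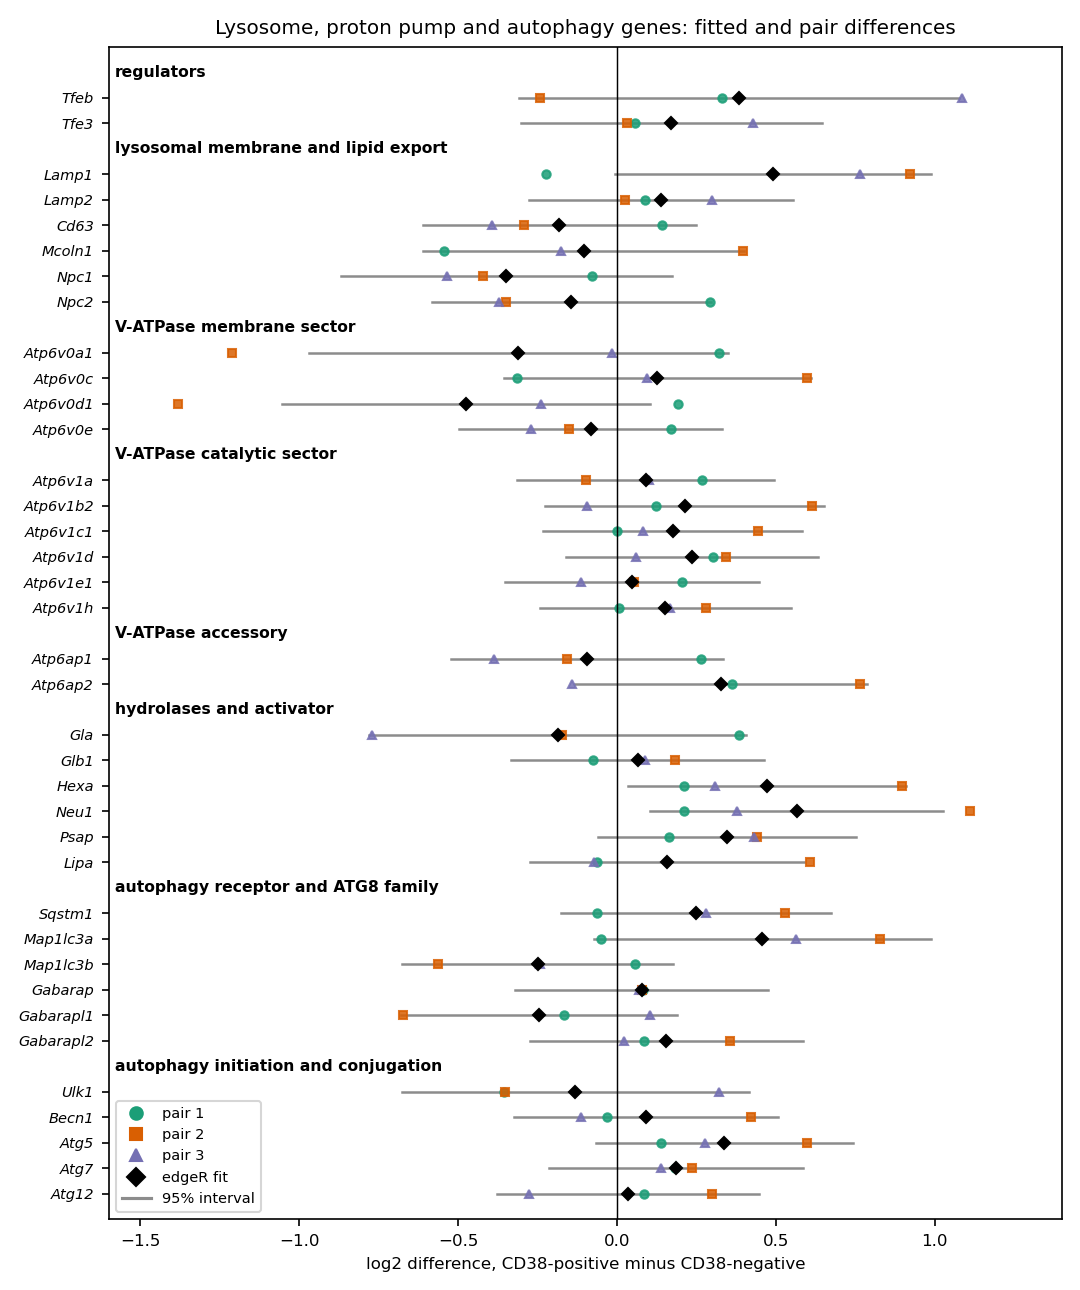
Log2 difference of each of the 37 members, CD38-positive minus CD38-negative, grouped by role; diamonds are the edgeR fit, grey lines its 95% interval, and coloured symbols the 3 pairs. Nearly all intervals cross 0, those of Neu1 and Hexa do not, and pair 2 (squares) often lies farthest from 0.

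Among the 2 transcription factors the levels were low. Tfeb was at 7.73, 6.79 and 7.39 CPM in CD38-positive libraries 1 to 3 and at 6.13, 8.06 and 3.42 CPM in the CD38-negative libraries. The populations overlapped, and the third CD38-negative library was the lowest (log2 fold change 0.38 ± 0.32 SE, adjusted p = 0.935 by edgeR); without pair 3 the log2 value was 0.040. Tfe3 was at 28.3, 27.2 and 20.9 CPM against 27.2, 26.6 and 15.5 CPM. It was slightly higher in CD38-positive cells in 3 of 3 pairs, but the levels overlapped (log2 fold change 0.17 ± 0.22 SE, adjusted p = 0.954 by edgeR). Both factors belong to the MiT family with Mitf and Tfec. Per length, as reads per kilobase of merged exons and library size (RPKM), the mean over the 6 libraries was 7.85 for Tfec, 2.62 for Tfe3, 1.16 for Tfeb and 0.338 for Mitf. With this length, every library of one gene in this order lay above every library of the next, with 1 exception. There, 1 CD38-negative library of Mitf reached 0.682 RPKM and 1 of Tfeb fell to 0.604 RPKM. With the longest transcript as the length, Tfe3 and Tfeb lay closer together, at means of 3.84 and 2.81 RPKM. These are levels of whole libraries, in which neutrophil and monocyte markers were abundant. The cells that the transcripts came from cannot be told apart.

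The hydrolases and their activator held the members with the smallest p-values. Neu1, the sialidase that trims sialic acid from glycoproteins, was at 84.4, 85.8 and 62.8 CPM in the CD38-positive libraries and at 72.9, 39.7 and 48.4 CPM in the CD38-negative ones. Each CD38-positive library lay above its partner, but the populations overlapped, because the first CD38-negative library was above the third CD38-positive one. The log2 fold change was 0.56 (SE 0.22), with pair differences of 0.21, 1.11 and 0.38, an unadjusted p of 0.0200 and an edgeR adjusted p of 0.925. Hexa, the alpha subunit of beta-hexosaminidase A, which degrades gangliosides, was at 305, 387 and 293 CPM against 264, 208 and 236 CPM. Here every CD38-positive library was above every CD38-negative one (log2 fold change 0.47 ± 0.20 SE, unadjusted p 0.0369, adjusted p = 0.926 by edgeR). Psap, the precursor of the saposins that present lipids to hydrolases, was at 262, 322 and 271 CPM against 234, 237 and 201 CPM. Its levels did not overlap either, at a log2 fold change of 0.35 (± 0.19 SE, adjusted p = 0.926 by edgeR).

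The other hydrolases showed smaller differences of either sign. Glb1, the lysosomal beta-galactosidase, and Lipa, the acid lipase that frees cholesterol, had log2 fold changes of 0.07 and 0.16. Gla, the alpha-galactosidase, had -0.19 and was the 1 hydrolase with a lower fitted value. The 6 genes of this role together summed to 845, 1046 and 830 CPM in the CD38-positive libraries and to 768, 676 and 698 CPM in the CD38-negative ones. The highest sum was in the CD38-positive library of pair 2, and the lowest in its CD38-negative partner.

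Pair 2 weighed heavily on these values. Without it the log2 fold change was 0.28 for Neu1 and 0.25 for Hexa, and 0 members had an unadjusted p under 0.05 in edgeR. In the same pair the monocyte and macrophage markers summed to 9449 CPM in the CD38-positive and 6262 CPM in the CD38-negative library. Most of each sum was 1 gene, Lyz2, at 8445 and 5327 CPM. The HSC markers of pair 2 summed to 992 and 2234 CPM in the same order. Over all pairs, 8 of the 10 monocyte and macrophage markers had higher fitted values in CD38-positive cells. Their sums were 9449 to 16434 CPM against 6262 to 12379 CPM, which overlapped. In pair 3 these sums were close, at 10494 CPM in the CD38-positive and 10439 CPM in the CD38-negative library. Of the HSC markers, 9 of 10 had lower fitted values, with sums of 767 to 1615 CPM against 1023 to 2234 CPM. Of the neutrophil markers, 7 of 10 had higher fitted values, with sums of 70276 to 159792 CPM against 79788 to 128173 CPM. Of the B and plasma cell markers, 8 of 10 had lower fitted values, with sums of 329 to 1036 CPM against 1190 to 3529 CPM, which did not overlap. Among them Igha, an immunoglobulin heavy chain gene, fell by 4.40 on the log2 scale (adjusted p = 0.00246 by edgeR) and was 1 of the 2 genes of the whole table that passed. Of the erythroid markers, 6 of 7 had lower fitted values, with sums of 2253 to 8156 CPM against 3075 to 6616 CPM. The part of these cell type markers in the hydrolase values was not tested.

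**Figure D2:**
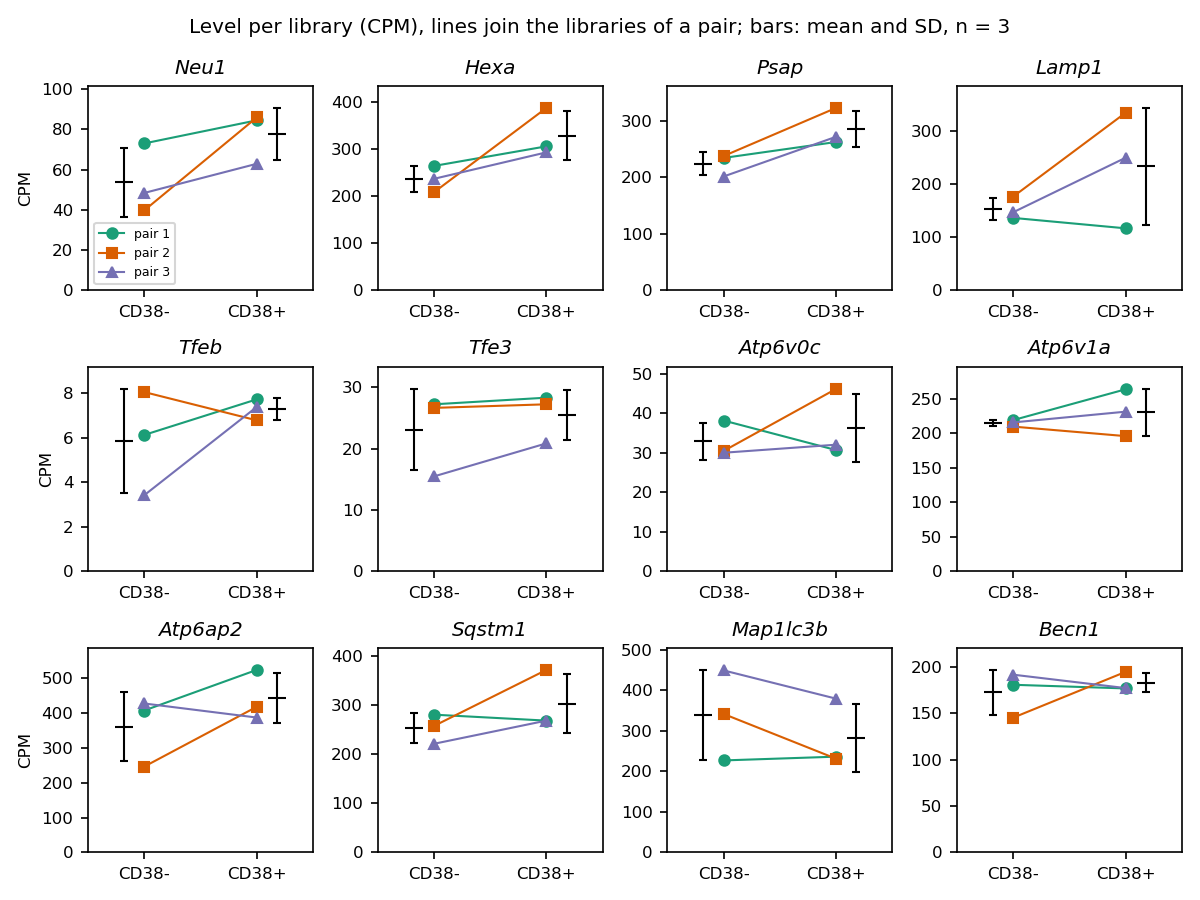
CPM of 12 members in each library (vertical axis from 0); lines join the CD38-negative and CD38-positive libraries of a pair, and bars give the mean and SD (n = 3). For Hexa and Psap every CD38-positive library is above every CD38-negative one, while for Neu1 and the other genes shown the populations overlap.

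Genes of the lysosomal membrane and lipid export had fitted values of both signs, 2 of 6 higher and 4 lower. Lamp1, one of the abundant glycoproteins that line the lysosomal membrane, was at 117, 334 and 249.2 CPM in the CD38-positive and at 136, 176 and 147 CPM in the CD38-negative libraries. It was lower in CD38-positive cells in pair 1 and higher in pairs 2 and 3 (differences of -0.22, 0.92 and 0.76; log2 fold change 0.49 ± 0.23 SE, unadjusted p 0.0520, adjusted p = 0.926 by edgeR). Without pair 2 the log2 fold change of Lamp1 was 0.26, and without pair 1 it was 0.84. Its sister gene Lamp2, which also serves chaperone-mediated autophagy, was among the steadiest members, at 572 to 668 CPM against 543 to 590 CPM and a within-population coefficient of variation of 6.40% against 40.8% for Lamp1.

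Both genes for cholesterol export had lower fitted values. Npc1, the membrane protein that moves cholesterol out of the lysosome, was at 13.2, 13.6 and 12.2 CPM against 14.0, 18.3 and 17.8 CPM. All CD38-positive values were below all CD38-negative ones, although in pair 1 by little (log2 fold change -0.35 ± 0.24 SE, adjusted p = 0.930 by edgeR). Npc2, its soluble partner, had -0.14 and pair differences of both signs. Cd63, a tetraspanin of late endosomes, and Mcoln1, the lysosomal calcium channel, had log2 fold changes of -0.18 and -0.11.

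Within the proton pump, the 6 members of the V1 sector all had fitted values above 0, and 3 of the 4 members of the V0 sector had fitted values below 0. The differences in V1 were small, from 0.05 to 0.24 on the log2 scale, and no interval excluded 0. When a pair was left out, Atp6v1a fell as low as 0.0015, Atp6v1b2 0.00072 and Atp6v1e1 -0.030, while the other V1 members stayed above 0. Of the 8 other pump subunits tested, not split by sector, 3 had higher and 5 lower fitted values. Atp6v1a, the subunit that hydrolyses ATP, was at 264, 196 and 231 CPM in the CD38-positive and at 219, 210 and 216 CPM in the CD38-negative libraries. Its levels overlapped and its log2 fold change was 0.09 (± 0.19 SE, adjusted p = 0.966 by edgeR). Atp6v1h, a subunit that regulates the pump, did not overlap (136, 153 and 140 CPM against 135, 126 and 125 CPM), yet the gap was narrow and the log2 fold change was 0.15. Atp6v1b2, Atp6v1c1, Atp6v1d and Atp6v1e1, which make up the rest of the head, rotor and stalk on this list, had 0.21, 0.18, 0.24 and 0.05.

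In V0, 1 library stood apart for 2 subunits. Atp6v0d1, which couples the rotor to the proton-carrying ring, was at 36.2, 32.3 and 35.1 CPM in the CD38-positive libraries and at 31.7, 84.4 and 41.4 CPM in the CD38-negative ones. The second CD38-negative library stood far above the others, and its log2 fold change of -0.48 (± 0.27 SE, adjusted p = 0.926 by edgeR) was -0.04 without pair 2. Atp6v0a1, an isoform of the subunit that lines the proton path, had the same library highest, at 27.9 CPM where the other 5 libraries had 8.77 to 12.3 CPM. Its log2 fold change was -0.31 with all pairs and 0.14 without pair 2. The same CD38-negative library had the highest HSC marker sum, 2234 CPM, and the lowest monocyte and macrophage marker sum, 6262 CPM. The part of these markers in the V0 values was not tested. Atp6v0c, the ring subunit, was at 30.7, 46.2 and 32.1 CPM against 38.2, 30.5 and 30.0 CPM (log2 fold change 0.13 ± 0.23 SE, adjusted p = 0.963 by edgeR), and without pair 2 its sign changed to -0.12. Atp6v0e had -0.08. Of the accessory proteins, Atp6ap2, the prorenin receptor, was at 523, 417 and 386 CPM against 407, 246 and 427 CPM (log2 fold change 0.33 ± 0.21 SE, adjusted p = 0.929 by edgeR). It was higher in CD38-positive cells in pairs 1 and 2 and lower in pair 3. Atp6ap1 had -0.09.

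The pump has alternative forms of several subunits, some of them known from kidney, bone or brain, and their levels per length are those of the whole libraries. Since neutrophil and monocyte markers were abundant in every library, the cells that these transcripts came from cannot be told apart. Among the a subunits the mean over the 6 libraries was 12.2 RPKM for Tcirg1, 7.75 RPKM for Atp6v0a2 and 2.02 RPKM for Atp6v0a1, while Atp6v0a4 had 0 to 3 reads per library. Atp6v1b2 was at 69.0 RPKM and its counterpart Atp6v1b1 had 1 read in the 6 libraries together. Atp6v0d1 was at 24.3 RPKM against 0.438 RPKM for Atp6v0d2, and Atp6v0e at 86.3 RPKM against 0.211 RPKM for Atp6v0e2. For the stalk, Atp6v1g1 was at 93.1 RPKM, Atp6v1g2 at 2.56 RPKM, and Atp6v1g3 had 1 read in all. Atp6v1e2 had 0 reads in every library, and the 3 counts used as a floor are 0.166 to 0.183 CPM. With the length of the longest transcript in place of the merged exons, an alternative chosen after seeing the data, the order of the forms given here in RPKM was the same.

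**Figure D3:**
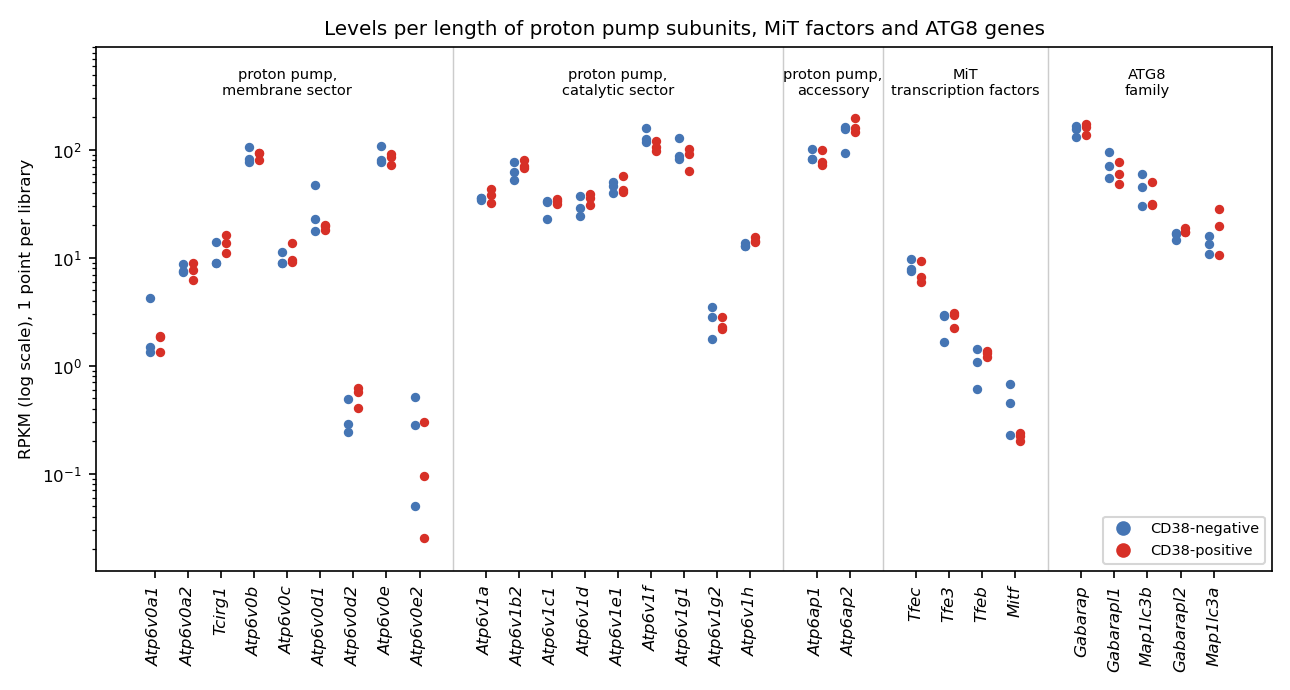
RPKM of proton pump subunits, MiT transcription factors and ATG8 family genes on a log scale, 1 point per library, CD38-negative in blue and CD38-positive in red. Atp6v0d2, Atp6v0e2 and Atp6v1g2 lie far below the other forms of their subunits, and Tfec lies above Tfe3, Tfeb and Mitf.

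Autophagy members had fitted values between -0.25 and 0.46, and none passed the test. Sqstm1, the receptor p62 that ties ubiquitin-tagged cargo to the forming membrane, was at 268, 371 and 268 CPM in the CD38-positive and at 280, 257 and 221 CPM in the CD38-negative libraries. The populations overlapped (log2 fold change 0.25 ± 0.20 SE, adjusted p = 0.932 by edgeR). Map1lc3b, the LC3 protein most used as a marker of autophagosomes, was at 236, 231 and 379 CPM against 227, 342 and 449 CPM. It varied more between pairs than between populations (log2 fold change -0.25 ± 0.20 SE, adjusted p = 0.932 by edgeR). Its relative Map1lc3a had the opposite sign, at 12.5, 33.3 and 23.4 CPM against 12.9, 18.7 and 15.8 CPM and a log2 fold change of 0.46 (± 0.25 SE, adjusted p = 0.926 by edgeR), which was 0.25 without pair 2.

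The GABARAP branch of the same ATG8 family acts mainly in late steps of autophagosome formation. Gabarap was the most even member across pairs, with differences of 0.08, 0.08 and 0.07. Gabarapl1 had a log2 fold change of -0.25 and Gabarapl2 0.16. The values of Gabarapl2 did not overlap (40.4 to 43.6 CPM against 34.0 to 39.8 CPM), again by a narrow gap. Per length, the mean over the 6 libraries was 155 RPKM for Gabarap, 68.0 for Gabarapl1, 41.3 for Map1lc3b, 17.0 for Gabarapl2 and 16.5 for Map1lc3a. Gabarap lay above the rest in every library, whereas the ranges of Gabarapl1 and Map1lc3b, and those of Gabarapl2 and Map1lc3a, overlapped. With the longest transcript as the length, Gabarapl1 and Map1lc3b were at 75.2 and 75.1 RPKM. As for the pump, the cells that these transcripts came from cannot be told apart.

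Of the genes that start autophagy and conjugate ATG8 proteins, Becn1, part of the lipid kinase complex, was at 177, 195 and 177 CPM against 181, 145 and 192 CPM, with overlapping levels (log2 fold change 0.09 ± 0.19 SE, adjusted p = 0.967 by edgeR). Atg5, which with Atg12 forms the conjugate that places ATG8 proteins on the membrane, was at 116, 125 and 137 CPM against 106, 82.3 and 113 CPM. Its levels did not overlap, by a narrow gap (log2 fold change 0.34 ± 0.19 SE, adjusted p = 0.926 by edgeR). The log2 fold change was 0.20 without pair 2. Atg12, its partner, had 0.03. Atg7, the activating enzyme of both conjugation systems, had 0.19, and Ulk1, the starting kinase, had -0.13.

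In all, the CD38-positive and CD38-negative levels did not overlap for 6 members: Hexa, Psap, Atp6v1h, Gabarapl2 and Atg5 were higher and Npc1 lower. This was 16.2% of the members, where 6.53% of all genes tested had levels that did not overlap. Among the 105 other lysosome and autophagy genes tested, described further on, it was 6 genes (5.71%), 4 higher and 2 lower. For the 5 higher members the background was 3.33%, and for the 1 lower member 3.19%. No test was made of the list, and the gap was narrow for Atp6v1h, Gabarapl2, Npc1 and Atg5. The nearest CD38-positive and CD38-negative values were 13.6 and 14.0 CPM for Npc1, and 116 and 113 CPM for Atg5. In 12 of the 37 members (32.4%) the 3 pairs differed in the same direction, beside 24.5% of all genes tested. Of these 12, 11 were higher in CD38-positive cells, where 13.2% of all genes tested were higher in all pairs. Among the 105 other genes, 34 (32.4%) had the same direction in all pairs, 24 higher and 10 lower.

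The pairs themselves differed in how far the members moved. The median absolute difference of the members was 0.17 in pair 1, 0.40 in pair 2 and 0.24 in pair 3, and over all genes tested it was 0.20, 0.43 and 0.30. In pair 2, 14 of the 37 members differed by at least 0.5 on the log2 scale, against 1 in pair 1 and 5 in pair 3. These were 2.7%, 37.8% and 13.5% of the members in pairs 1, 2 and 3, below the 17.4%, 44.0% and 28.8% of all genes tested. By role, the medians of the hydrolases were 0.19, 0.52 and 0.20 in pairs 1, 2 and 3, those of the V1 sector 0.16, 0.31 and 0.07, and those of the initiation and conjugation genes 0.09, 0.30 and 0.14. The medians of the V0 sector were 0.18, -0.68 and -0.13. The autophagy receptor and ATG8 family had medians of 0.003, 0.22 and 0.09, with 3 genes higher and 3 lower in pair 1. Regulators had 0.19, -0.11 and 0.76, lysosomal membrane and lipid export genes 0.005, -0.13 and -0.27, and accessory proteins 0.31, 0.30 and -0.27. Over all genes tested the medians were 0.002, -0.02 and 0.03. Thus the hydrolases, the V1 sector and both groups of autophagy genes had medians above 0 in all 3 pairs. Among the cell type markers in the same pairs, the monocyte and macrophage medians were 0.21, 0.26 and 0.21. The HSC marker medians were -0.34, -1.03 and 0.13, and the neutrophil marker medians 0.48, 0.10 and -0.39. The B and plasma cell marker medians were 0.25, -0.68 and -0.74, and the erythroid marker medians 0.22, -0.61 and -0.68. The part of these markers in the pair values was not tested.

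**Figure D4:**
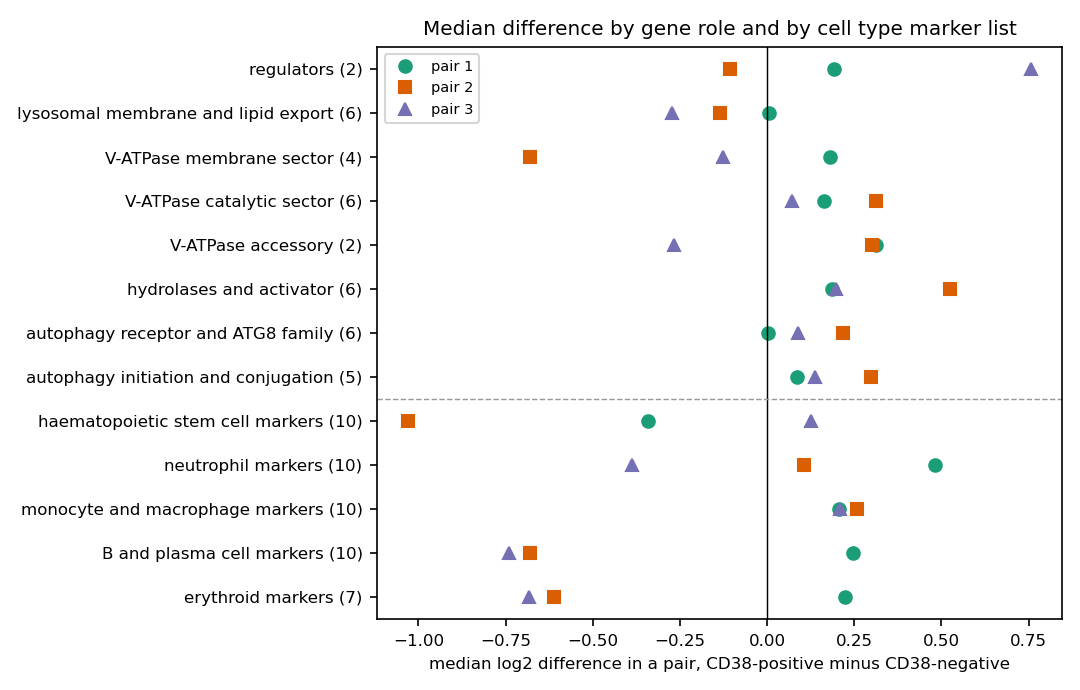
Median log2 difference in each pair, CD38-positive minus CD38-negative, for the 8 member roles (above the dashed line) and for 5 cell type marker lists (below), with the number of genes in brackets. Medians of the hydrolases, the V1 (catalytic) sector and both groups of autophagy genes are above 0 in all 3 pairs, and the V0 median runs from 0.18 to -0.68.

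Members were also split by their promoter letters. The RefSeq promoter table, with 250 bases before to 50 after each start, held 30 of the 37 members; Npc1, Atp6v1b2, Atp6v1c1, Atp6v1h, Map1lc3a, Becn1 and Atg12 had no entry. CACGTG, which reads the same on both strands, was present for 9 of these 30 genes: Lamp1, Mcoln1, Gla, Glb1, Atp6v0d1, Atp6v0e, Atp6v1a, Atg5 and Atg7. It was found in 9 of their 36 promoters, where 7.15% of the 32851 promoters in the table held it. The longer GTCACGTG, searched on both strands and always containing the shorter one, was present for 6 genes, with 2.25% of all promoters holding it. The 9 genes with CACGTG had a median log2 fold change of 0.07 (5 higher, 4 lower), and the 21 genes without it 0.14 (14 higher, 7 lower). Lamp1 and Atp6v0d1, at 0.49 and -0.48, were both among the 9, and Neu1 and Hexa among the 21. The Atg7 window, from position 114670846, lies well inside its gene, which starts at 114643097 in GENCODE. So does the Cd63 window, from 128909095 in a gene that starts at 128900989. No test was made of this split. Other forms of the binding site were not searched, so the 21 genes are those without the exact letters only.

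The rest of the pathway was read from a list of 112 other lysosome and autophagy genes, of which 105 had enough reads to test. None passed an adjusted p of 0.05 in edgeR, and 2 had an unadjusted p under 0.05 (1.90%, beside 5.08% of all genes tested), 1 higher and 1 lower. DESeq2 gave the same 2 genes at an unadjusted p under 0.05. The higher one was Slc11a1, a metal ion transporter of phagocyte lysosomes, at 19.9, 22.0 and 16.6 CPM in the CD38-positive and 14.4, 11.8 and 12.2 CPM in the CD38-negative libraries. Its levels did not overlap (log2 fold change 0.61 ± 0.24 SE, unadjusted p 0.0246, adjusted p = 0.925 by edgeR). The lower one was Vamp8, a SNARE protein that fuses autophagosomes with lysosomes, at 45.9, 31.7 and 38.7 CPM against 49.96, 59.4 and 70.9 CPM. All CD38-positive libraries were below all CD38-negative ones (log2 fold change -0.63 ± 0.22 SE, unadjusted p 0.0109, adjusted p = 0.925 by edgeR).

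By role, 18 of 26 other hydrolases and activators had higher fitted values (median 0.13), as had 12 of 19 other lysosomal membrane and sorting genes (median 0.04). Of the genes for nutrient sensing at the lysosome and related transcription factors, 4 of 15 had higher and 11 lower fitted values (median -0.09). The other proton pump subunits had 3 of 8 higher, the other initiation and conjugation genes 9 of 22, and the other receptors and fusion genes 8 of 15. Over all genes tested, 7404 of 14785 had higher fitted values.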

How the data were processed

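RNA sequencing counts were analysed for 3 CD38-positive and 3 CD38-negative HSC libraries, grouped by the population in the labels and paired by the series' design text. The authors deposited raw read counts per Ensembl gene, 1 table per library. Per the submitters' processing notes, cutadapt, STAR, HTSeq 0.6.1p1 and the builds GRCm38 and mm10 were used; strand setting and annotation release are not given in the sources used here. Exons of 10 members overlap another annotated gene (among them Lamp1, Npc1, Glb1, Hexa, Sqstm1, Gabarapl1 and Becn1), and Atp6v0c and Cd63 have annotated pseudogene copies, so their counts are less certain. Symbols matched 49326 of 49585 identifiers; exon lengths came from GENCODE M21 (GRCm38).

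Genes were kept with filterByExpr and scaled by TMM. The test was edgeR 4.0.16's quasi-likelihood F-test (R 4.3.3) on pair plus population, with Benjamini-Hochberg adjustment over all 14785 genes. The intervals use its standard errors. Pair differences were taken on log2 CPM, adding 2 as prior count. The pairing comes from the design text. Within pairs, log2 CPM minus the population mean correlated at 0.34, 0.12 and 0.24. No correlation of unmatched libraries is given beside these, so they do not test the pairing. No libraries of a population were alike within counting noise, so none was treated as a duplicate. On simulated counts for this comparison (14444 genes after filtering), 41 of 100 genes changed 2-fold and 92 of 100 changed 4-fold were called. The changed genes were drawn only from those above a minimum mean count. They outnumbered the 2 genes that passed in the real data, which eases the adjusted threshold. These shares can therefore be too high for the real data. Alternatives were no replicate block, DESeq2 1.42.0, its size factors, unscaled totals, no filter and leaving out each pair.

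Values in every library are given for members with an unadjusted p under 0.05, for members that moved the same way in all pairs by at least 0.5, for Tfeb and Tfe3 and for 1 preset gene per other role; Npc1, Atp6v1h, Gabarapl2, Atg5, Atp6v0d1 and Map1lc3a were added after their values were seen. The members and lists were chosen with earlier results of these data known. Counting floors cover counting error only.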

Additional observations from a re-analysis of the deposited data

How the results depend on the processing

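No member passed an adjusted p of 0.05 under any of the 8 alternatives, DESeq2 included. Members with an unadjusted p under 0.05 numbered 2 with the replicate block, 1 with no replicate block (Hexa), 4 with no filter (Neu1, Hexa and Lamp1 higher, Atp6v0d1 lower) and 0 to 4 when a pair was left out, the 0 being without pair 2. Other pathway genes numbered 2, with 6 under no filter and 1 to 8 when a pair was left out. Over all genes, the count past an adjusted p of 0.05 was 2 with the block, 0 with no replicate block and 0 with unscaled totals (417 and 595 genes at an unadjusted p under 0.05), 11 in DESeq2, 7 with its size factors, 80 with no filter and 2 to 41 when a pair was left out; the cause was not tested.

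For the members, Slc11a1 and Vamp8, 0 of 195 fold changes reversed under the other settings, and 11 of 117 did when a pair was left out. Those ranged from -0.37 to 0.11 for Mcoln1, -0.63 to 0.14 for Atp6v0a1, -0.12 to 0.35 for Atp6v0c, -0.21 to 0.0092 for Atp6v0e, -0.030 to 0.13 for Atp6v1e1, -0.27 to 0.051 for Atp6ap1, -0.48 to 0.11 for Gla, -0.0058 to 0.14 for Glb1, -0.080 to 0.27 for Lipa, -0.085 to 0.19 for Becn1 and -0.11 to 0.19 for Atg12. Without pair 3 the log2 fold change of Tfeb was 0.040. A gene with fewer than 3 counts in a library, up to 0.183 CPM, was below the counting floor.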
